A study of Mus musculus with 4 samples.

Results

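The genes described here encode the subunits of the oxidative phosphorylation (OXPHOS) complexes that the nucleus contributes to mitochondria, together with the assembly factors whose symbols share the same stems. They were chosen by name from the deposited RNA-seq table of cultured muscle stem cells (MuSC, satellite cells), as protein-coding genes of GENCODE release M21 whose symbols begin with Ndufa, Ndufb, Ndufc, Ndufs, Ndufv, Sdha to Sdhd, Uqcr, Cox4i, Cox5, Cox6, Cox7, Cox8 or Atp5. The rule found 95 of the 20065 genes in the table. Complex I accounted for 44 of them, complex II for 8, complex III for 8, complex IV for 18 and complex V for 17. By role, 81 were structural subunits (20 core, 55 accessory and 6 tissue-restricted isoforms), 13 were assembly factors and 1, Cox7a2l, was a factor of respiratory supercomplexes. Cox7b2, Cox8c and a second gene named Atp5o match the rule but have no row.

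The cells came from limb and trunk muscles of adult C57BL/6 mice and were cultured before RNA was isolated. The 2 Prmt5sKO libraries were made from mice of the genotype Pax7CreERT2/Prmt5loxP/loxP (+TAM) and the 2 control libraries from Pax7CreERT2/Prmt5+/loxP (+TAM) mice, so the controls also carried the Cre driver, were given the inducer and had a loxP allele. Cre under Pax7 acts in satellite cells, and the study treated the cultured cells with 4-OH tamoxifen. Prmt5, the targeted arginine methyltransferase, had normalised read counts of 2273 and 2906 in control and of 244 and 202 in Prmt5sKO cells. Nothing in the labels says how many mice stand behind a library, so p-values measure the spread between these libraries only.

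OXPHOS passes electrons from NADH through complex I, or from succinate through complex II, to ubiquinone, then through complex III and cytochrome c to oxygen at complex IV. The proton gradient built on the way drives ATP synthesis at complex V. Core subunits carry the redox centres or the catalytic sites, accessory subunits surround them, and the mitochondrial genome encodes the remaining core subunits. Myoblasts that fuse into fibres usually gain mitochondria, and muscle fibres replace some subunits of complex IV with heart and skeletal muscle isoforms.

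Promoter windows of RefSeq (GRCm38.p6, 250 bases before the annotated start) were matched by symbol for 77 of the 95 genes. They were searched on both strands for GCGC and TGCGC separated by any 1 base, the recognition sequence of nuclear respiratory factor 1 (NRF1), for CCGGAAG, a core bound by ETS factors such as GABP, for AAGATGGC, bound by YY1, and for the E-box CAGCTG, bound by myogenic bHLH factors. None of these words contains another, and no matches printed here overlap. NRF1 words occurred in the windows of 14 genes (18.2%) against 3.74% of all 32851 windows, ETS words in 16 genes (20.8%) against 6.91%, YY1 words in 1 gene (1.30%) against 1.56%, and the E-box in 6 genes (7.79%) against 13%. A gene can have several windows, so these shares are descriptions. The windows of Cox6a1 and Atp5g2 are printed for their NRF1 words, that of Cox8b, the muscle partner of Cox8a, for its E-box, and that of Cox7a2l because this gene had the smallest p of all members. All lie on the minus strand and run 5′ to 3′ to the base before the start, with the matched words in capitals. They cover chr5:115348959-115349208 (Cox6a1), chr15:102671048-102671297 (Atp5g2), chr7:140900447-140900696 (Cox8b) and chr17:83514334-83514583 (Cox7a2l). For Cox6a1, Atp5g2 and Cox7a2l the RefSeq start lies inside the longer GENCODE gene, and so does the ETS word of Cox6a1. The windows of Atp5g2, with its NRF1 word, and of Cox7a2l lie wholly inside the GENCODE genes, which begin at 102672352 and 83517330. The bases before these GENCODE starts were not searched.
Cox6a1: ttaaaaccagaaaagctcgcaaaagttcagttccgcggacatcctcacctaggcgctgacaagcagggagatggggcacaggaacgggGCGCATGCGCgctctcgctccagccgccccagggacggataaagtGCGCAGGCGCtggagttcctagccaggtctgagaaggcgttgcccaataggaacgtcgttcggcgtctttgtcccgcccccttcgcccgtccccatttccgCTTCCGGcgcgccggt
Atp5g2: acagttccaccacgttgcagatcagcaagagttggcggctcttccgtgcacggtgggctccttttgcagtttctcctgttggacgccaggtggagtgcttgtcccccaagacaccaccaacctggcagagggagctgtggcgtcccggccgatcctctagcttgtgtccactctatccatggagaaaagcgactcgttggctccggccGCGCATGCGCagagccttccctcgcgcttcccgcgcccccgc
Cox8b: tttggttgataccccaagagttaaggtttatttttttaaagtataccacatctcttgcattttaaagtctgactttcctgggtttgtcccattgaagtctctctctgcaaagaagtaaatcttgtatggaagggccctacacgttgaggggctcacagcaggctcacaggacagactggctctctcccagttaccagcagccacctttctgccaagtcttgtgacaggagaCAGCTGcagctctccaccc
Cox7a2l: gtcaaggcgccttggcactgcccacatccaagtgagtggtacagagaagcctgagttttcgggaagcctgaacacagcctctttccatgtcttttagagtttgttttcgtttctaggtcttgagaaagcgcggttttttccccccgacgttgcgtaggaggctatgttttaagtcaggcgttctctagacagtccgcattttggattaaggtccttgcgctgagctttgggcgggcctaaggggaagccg
Cox6a1 holds 2 NRF1 words, of which the one nearer the start matches on the other strand. From 16 to 10 bases before the start it holds an ETS word, also on the other strand. Atp5g2 holds its NRF1 word from 42 to 33 bases before the start. In Cox8b the E-box lies from 19 to 14 bases before the start, and the window of Cox7a2l held none of the 4 words.

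The deposited values are group means, from which the whole reads of each library were recovered, and the libraries of a group are named by depth. The deeper and shallower control libraries held 14436914 and 13240754 reads in genes, and the Prmt5sKO libraries 20047430 and 16190414. The Prmt5sKO libraries stood apart from each other in muscle differentiation markers. The summed normalised count of 20 such genes (Myog, myosins, troponins, Ttn and others) was 61806 and 106449 in control, 61424 in the deeper Prmt5sKO library and 476107 in the shallower one, and all 20 were higher in the shallower than in the deeper Prmt5sKO library. Ttn, the giant spring protein of the sarcomere, gave much of these sums, with 39149 and 90033 in control and 28428 and 171011 in Prmt5sKO. For most of the 20 genes the deeper Prmt5sKO library stood above control too, at times by little (Myh3 3024 against 2858 in the deeper control). For Ttn, Tnnt1 and Tnni2 it lay below both controls. Its median log2 deviation from the control mean was 1.00, and that of the shallower one was 5.08. For 14 of the 20 genes (70%) both Prmt5sKO libraries lay above both controls, against 25.2% of all genes tested, and the median log2 fold change was 2.87. Myog, a transcription factor of differentiating myoblasts, had 1436, 1189, 3707 and 19508. The 6 progenitor markers summed to between 28157 and 40760 in all libraries, with Pax7 and Myod1 present throughout. Of other cell types, 4 of 5 endothelial, 2 of 5 haematopoietic, 6 of 6 fibro-adipogenic and 4 of 6 adipocyte markers had rows, with summed counts of 56.3 to 163, 192 to 597, 65.9 to 409 and 5.93 to 25.9. Cdh5 and Lum were at 0 reads in at least 1 library, and Ptprc and Adipoq had no row. Col15a1 alone gave 345 of the fibro-adipogenic sum in the shallower Prmt5sKO library. Gm42418 and Gm26917, which overlap ribosomal RNA, took 4.63% and 12.2% of the control reads and 1.16% and 1.88% of the Prmt5sKO reads.

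Between the groups the subunits had a median difference close to that of all genes. Values are log2 fold changes of Prmt5sKO over control from limma-voom, on counts normalised by trimmed mean of M-values (TMM) with p-values adjusted by Benjamini-Hochberg over all genes tested. Of the 95 genes, 94 passed the minimum mean normalised count of 5, and the exception was Ndufa4l2 with 0, 9, 5 and 4 reads. None of the members reached a 2-fold change with an adjusted p up to 0.05 by limma-voom, and neither did any of the 16212 genes tested (0%). The study itself reported up- and downregulated genes from this RNA-seq experiment, using DESeq2. The absence of calls therefore applies to the test used here and not to the data in general. Prmt5 itself, with a log2 fold change of -3.52 ± 0.27 and the smallest p of all genes (1.19e-05), had an adjusted p of 0.193 by limma-voom, so the absence of calls says nothing about which genes differed. At an unadjusted p under 0.05, 3 of the 94 genes were higher (Cox7a2l, Atp5s and Ndufb9) against 6.01% of all genes, and 0 were lower against 6.95%. The median over the 80 structural subunits tested was 0.08, with quartiles of -0.12 and 0.25, beside 0.02 over all genes tested and 0.05 over protein-coding genes. It was positive for 48 subunits and negative for 32. The groups did not overlap, with both Prmt5sKO libraries above both controls, for 13 of the 80 subunits, against 25.2% of all genes. Both Prmt5sKO libraries lay below both controls for 1 subunit, Uqcr10, against 23.6% of all genes. The median of all subunits rested on the balance of the Prmt5sKO libraries: it was 0.36 without the deeper and -0.20 without the shallower Prmt5sKO library, and 0.05 and 0.07 without the deeper and shallower control library.

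**Figure D1:**
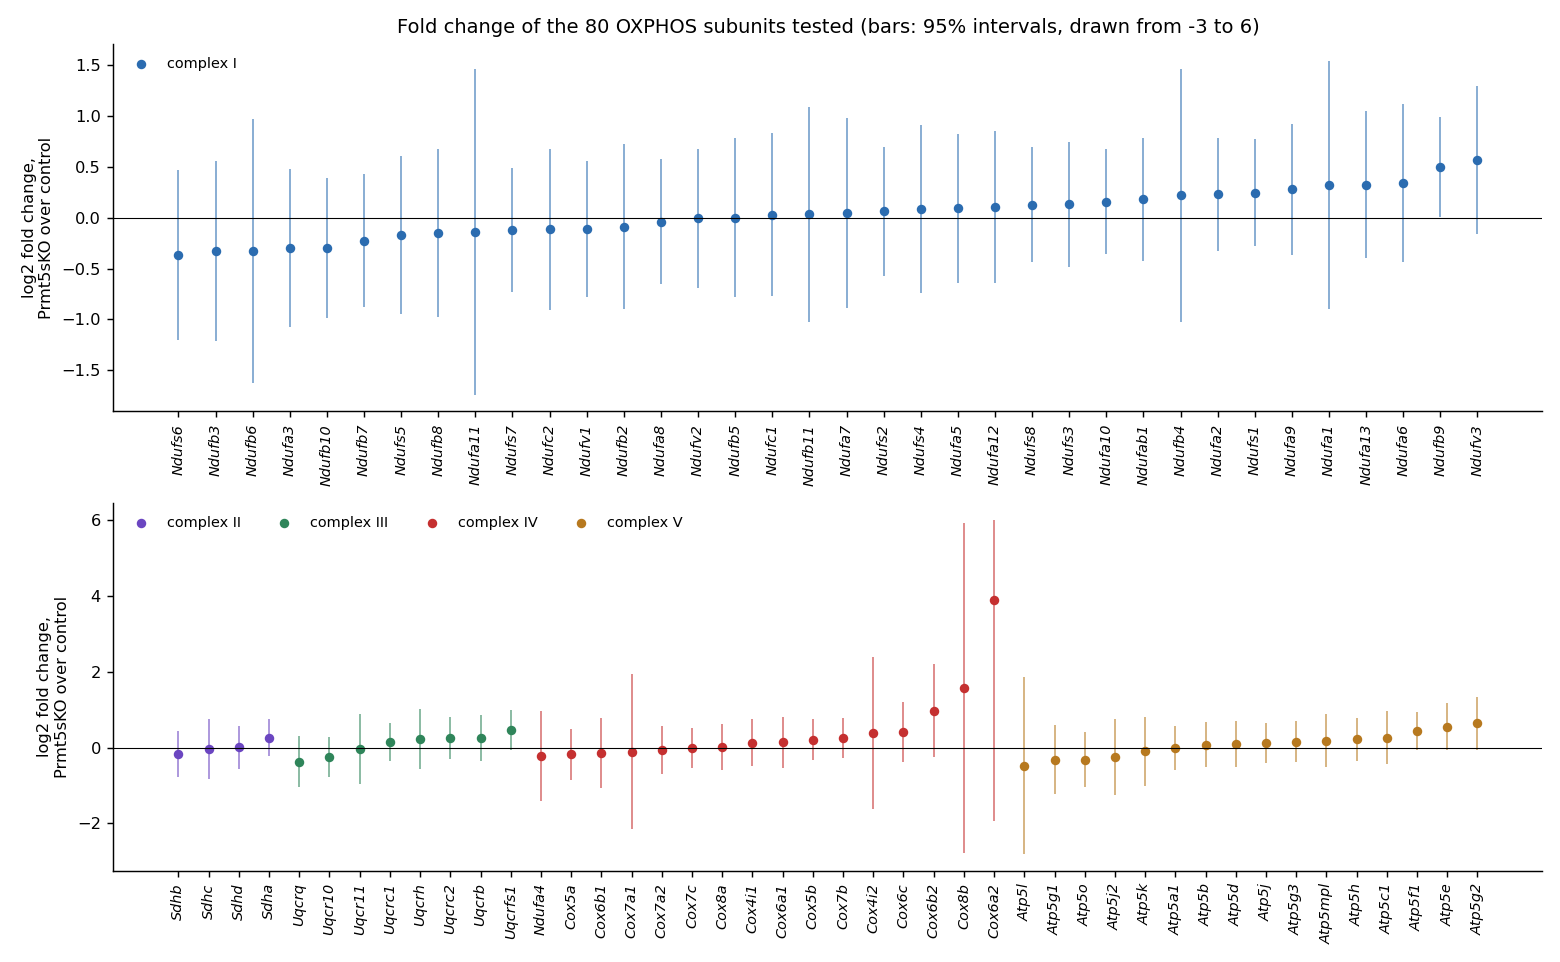
Log2 fold change of Prmt5sKO over control (y axis) for each of the 80 subunits tested, with 95% limma-voom intervals as bars, complex I above and complexes II to V below, ordered within each complex. Ndufb9 has the only interval that lies wholly above 0, and the widest intervals belong to Cox6a2, Cox8b and Atp5l.

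The larger difference lay within the Prmt5sKO group. The shallower Prmt5sKO library exceeded the deeper one for 76 of the 80 subunits, with a median difference of 0.55 on the log2 scale. Over all genes tested this median was -0.02, and between the control libraries it was 0.05 over the subunits. The exceptions were Atp5l, Ndufab1, Cox4i2 and Cox7c. For 34 subunits (42.5%) the deeper Prmt5sKO library lay below both controls and the shallower above both, an order seen in 6.46% of all genes and chosen for counting after the values were seen. The opposite order held for 1 subunit, against 7.16% of all genes. Summed over the subunits, the normalised counts were 152250 and 158736 in control, 139974 in the deeper Prmt5sKO library and 194216 in the shallower. All 95 genes together took 0.957% and 0.947% of the control reads, 0.969% of the reads of the deeper Prmt5sKO library and 1.22% of those of the shallower. The library with the higher subunit counts was the one with the higher muscle differentiation markers, and the part of differentiated cells in this difference was not tested. In bulk RNA more cells of a kind and more RNA per cell cannot be told apart.

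**Figure D2:**
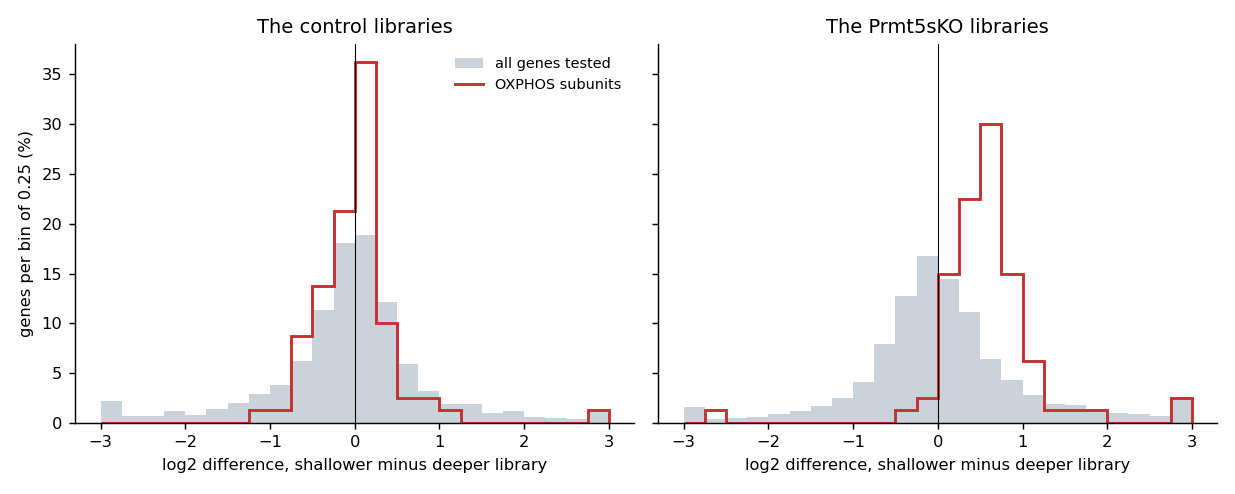
Distribution of the log2 difference between the shallower and the deeper library of each group (x axis, bins of 0.25, values beyond 3 in the end bins) for all genes tested (grey) and for the OXPHOS subunits (red), as percent of genes. In the control libraries the subunits centre near 0, whereas in the Prmt5sKO libraries their highest bin runs from 0.5 to 0.75, a range that holds 6.42% of all genes.

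In all 5 complexes the shallower Prmt5sKO library was the higher one for most subunits. The order with the deeper below both controls and the shallower above both was less uniform. It held for 52.8% of the subunits of complex I, 75% of complex II, 25% of complex III, 25% of complex IV and 37.5% of complex V. The median difference of the shallower from the deeper Prmt5sKO library was 0.66 in complex I (higher for 35 of 36 subunits), 0.47 in complex II (4 of 4), 0.42 in complex III (8 of 8), 0.56 in complex IV (14 of 16) and 0.42 in complex V (15 of 16). Core subunits had a median of 0.43 and were higher in the shallower library in 20 of 20 cases, and accessory subunits one of 0.60 in 52 of 55. Medians between the groups were 0.04 for complex I, -0.02 for complex II, 0.19 for complex III, 0.14 for complex IV and 0.11 for complex V. The pooled SD of a complex's median level between libraries of a group ran from 0.22 to 0.32. By level per kilobase of transcript, complex V was the most abundant in control cells, with a median of 2601 normalised counts per kb, followed by complex IV (1891, common subunits), complex III (1768), complex II (1686) and complex I (818). Atp5b, the catalytic beta subunit of ATP synthase, stood first of all subunits with 16595 per kb, and Atp5g3 second with 7945.

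**Figure D3:**
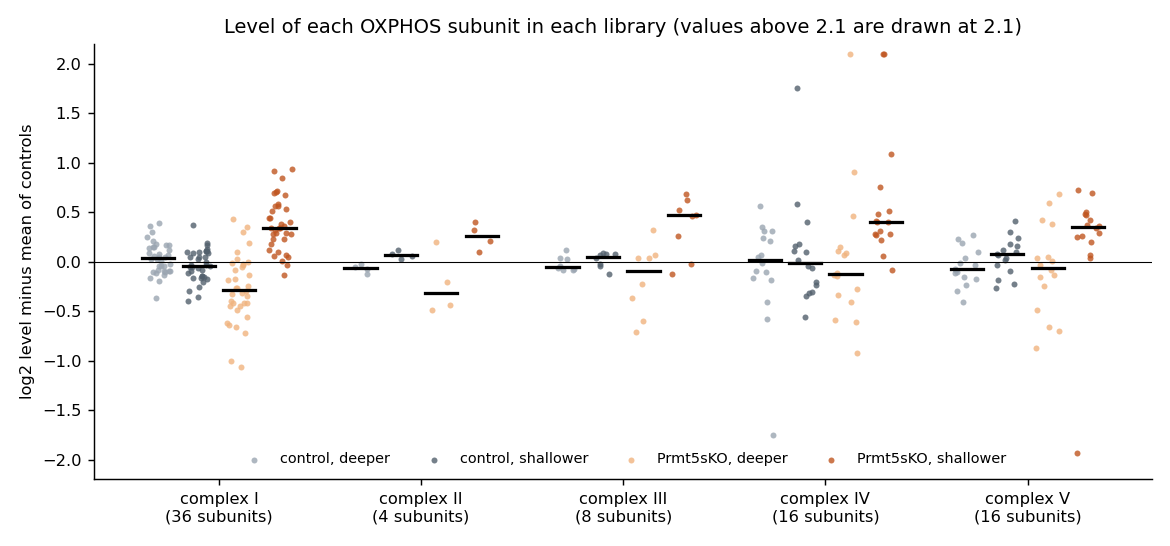
Log2 level of each subunit minus the mean of the control libraries (y axis) in the 4 libraries, by complex, with 1 point per subunit and a black bar at the median. The deeper Prmt5sKO points centre below 0 and the shallower Prmt5sKO points above 0 in every complex. In complex V the deeper Prmt5sKO median (-0.062) lies between those of the deeper (-0.075) and shallower (0.075) control libraries. Values of Cox6a2 and Cox8b above 2.1 are drawn at 2.1.

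Complex I takes electrons from NADH. Ndufv1, which binds NADH, had 2158 and 2297 normalised counts in control, 1627 in the deeper Prmt5sKO library and 2616 in the shallower. The Prmt5sKO libraries therefore stood on either side of the controls, and the log2 fold change was -0.11 ± 0.28 (SE, n = 2 per group, adjusted p = 0.877 by limma-voom). Ndufs1, an iron-sulphur subunit, had 2153, 2447, 2452 and 3022, with a log2 fold change of 0.25 ± 0.22 (limma-voom adjusted p = 0.636). Ndufb9, an accessory subunit of the membrane arm (chr15:58933756-58939488, plus strand), had 1340 and 1513 in the control and 1917 and 2106 in the Prmt5sKO libraries. Its groups did not overlap, and the log2 fold change of 0.50 ± 0.20 had an unadjusted limma-voom p of 0.0491 and an adjusted p of 0.384. The highest fold change of the complex was that of Ndufv3 (0.56, 95% interval -0.16 to 1.29) and the lowest that of Ndufs6 (-0.37, -1.21 to 0.47). The widest gap between the Prmt5sKO libraries was that of Ndufa11, with 289 and 1144, where the controls had 777 and 471.

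Complex II, succinate dehydrogenase, has 4 subunits, all encoded in the nucleus. Sdha, the flavoprotein that oxidises succinate, had 5364 and 5545 in control, and 6243 and 6802 in Prmt5sKO. This was the only complex II subunit without overlap of the groups, with a log2 fold change of 0.26 ± 0.20 (limma-voom adjusted p = 0.592). Its iron-sulphur partner Sdhb had 2469, 2736, 1916 and 2781, so that the Prmt5sKO libraries lay outside the controls on either side (log2 fold change -0.17 ± 0.25). The membrane anchors Sdhc and Sdhd had the same order of libraries as Sdhb and fold changes of -0.05 and 0.00.

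In complex III, which hands electrons to cytochrome c, Uqcrfs1 had the highest fold change. This Rieske iron-sulphur protein had 1415 and 1589 in the control and 1866 and 2316 in the Prmt5sKO libraries, which did not overlap. The log2 fold change was 0.47 ± 0.22, with an unadjusted p of 0.0722 and an adjusted p of 0.411 by limma-voom. Uqcrc1, a core-protein scaffold, had 3915, 3793, 3948 and 4627 (0.15 ± 0.20). Uqcrq, a small accessory subunit, was the lowest of the complex with -0.37 ± 0.28. The deeper Prmt5sKO library had 1008 where the other libraries had between 1604 and 1697.

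In complex IV, cytochrome c oxidase, the common subunits had a median log2 fold change of 0.00 (11 subunits), and the isoforms were the most variable. Cox6a2, the heart and skeletal muscle isoform that replaces Cox6a1 in fibres (chr7:128205435-128206387, minus strand), had 0 and 4 control reads, 12 reads in the deeper Prmt5sKO library and 87 in the shallower. As a share of the reads of Cox6a2 and Cox6a1 together these were 0% and 0.202% in control, 0.317% (95% Wilson interval 0.181 to 0.553) and 2.16% (1.75 to 2.65). The upper Wilson limit for the count of 0 was 0.122%. The fitted log2 fold change was 3.88 (95% interval -1.93 to 9.69, adjusted p = 0.512 by limma-voom). It was 2.13 without the deeper control library, 5.52 without the shallower control library and 5.62 without the deeper Prmt5sKO library, and without the shallower Prmt5sKO library the gene fell under the minimum mean count. Both Prmt5sKO shares exceeded both control shares, the interval of the deeper one overlapping that of the shallower control. Cox8b, the muscle isoform of subunit 8 (chr7:140898945-140900446, minus strand), made up 0.678% and 0.293% of its pair with Cox8a in the control libraries, 0.492% in the deeper Prmt5sKO library and 5.08% (4.32 to 5.96) in the shallower. Its deeper Prmt5sKO value lay between the controls, so the higher level was seen in the shallower library alone, which also held the high muscle markers. The fitted log2 fold change of 1.57 (-2.77 to 5.92, limma-voom adjusted p = 0.714) became -0.20 without that library. Cox7a1, the third muscle isoform, did not have this order, with 1.04% and 2.07% of its pair with Cox7a2 in control and 1.21% and 1.77% in Prmt5sKO. With 2 libraries per group an exact two-sided permutation test cannot go below p = 0.333, and the shares of Cox6a2, Cox8b and Cox7a1 gave 0.333, 0.667 and 1. Intervals and limits cover counting error only.

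The ubiquitous partners stayed the main forms in every library. Cox6a1 had 3550, 2564, 2795 and 3972 normalised counts, Cox7a2 1077, 1227, 910 and 1342, and Cox8a 2151, 2203, 1799 and 2650. Their log2 fold changes were 0.15, -0.06 and 0.00, all with intervals that include 0, and the sign for Cox7a2 and Cox8a turned with the scaling. Of the isoforms linked to other tissues, Cox6b2, known from testis, had 37 and 24 reads in the control and 92 and 77 in the Prmt5sKO libraries. That was 2.36% and 2.84% of its pair with Cox6b1 in control, 7.02% and 4.41% in Prmt5sKO (exact permutation p = 0.333, two-sided), with a log2 fold change of 0.97 ± 0.50 and an adjusted p of 0.452 by limma-voom. Here the deeper Prmt5sKO library had the higher share, unlike for the muscle isoforms. This order held for the share only. The normalised count of Cox6b2 itself was 68.2 in that library, below the 77.4 of the shallower one. Its partner Cox6b1 differed more, with 902 against 1678. Cox4i2, a lung and hypoxia-linked form, had 7, 11, 20 and 13 reads and at most 0.368% of its pair. Ndufa4l2, a hypoxia-linked relative of Ndufa4, reached at most 0.991% of its pair. Ndufa4 itself had the lowest fold change of the complex (-0.22 ± 0.49), with 764 and 2062 in the Prmt5sKO libraries around the 1804 and 1166 of the controls. Cox4i1, the common form of subunit 4, had 4641, 4243, 4009 and 5880 (0.13 ± 0.25), Cox6b1 1731, 1063, 902 and 1678 (-0.15 ± 0.38) and Cox7b 1205, 1132, 1243 and 1558 (0.25 ± 0.22).

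**Figure D4:**
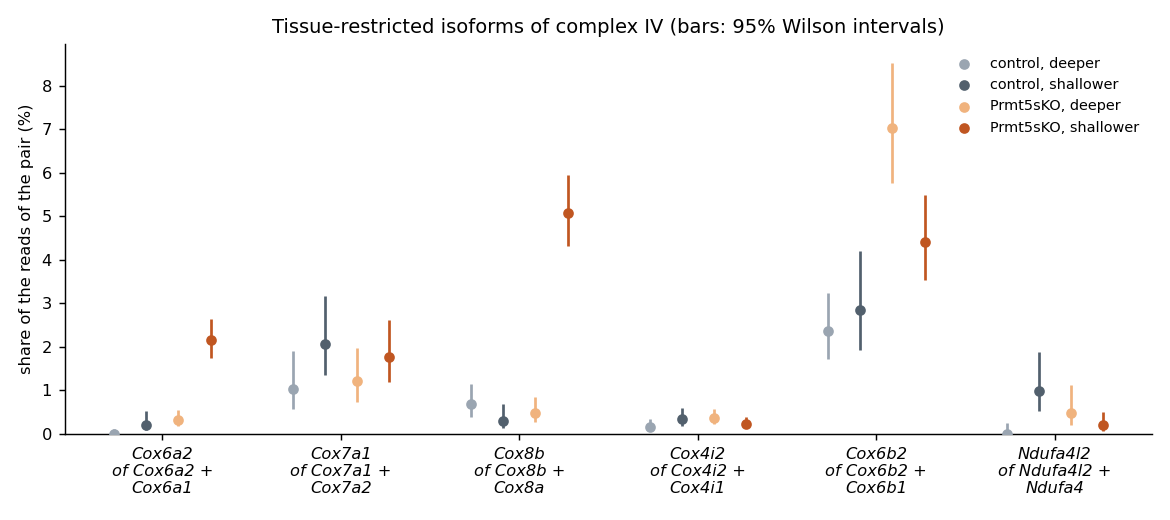
Share of each tissue-restricted isoform in the reads of the isoform and its ubiquitous partner (y axis, percent) in the 4 libraries, with 95% Wilson intervals as bars. Cox6a2 at 2.16% and Cox8b at 5.08% stand out in the shallower Prmt5sKO library, Cox6b2 is above control in both Prmt5sKO libraries, and Cox7a1 shows no such order.

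Complex V makes ATP. Atp5b had 30031 and 33563 normalised counts in control, 28997 in the deeper Prmt5sKO library and 38048 in the shallower, with a log2 fold change of 0.07 ± 0.24 (limma-voom adjusted p = 0.919). Both Prmt5sKO values lay outside the range of the controls, on opposite sides. The rotor ring of subunit c is encoded by Atp5g1, Atp5g2 and Atp5g3. Atp5g3 gave most of their reads, 84.8% and 82.8% in control and 86.6% and 84.3% in Prmt5sKO. Atp5g2 had the highest fold change of the complex, with 298 and 218 in the control and 385 and 422 in the Prmt5sKO libraries (0.64 ± 0.29, unadjusted p = 0.0648, adjusted p = 0.403 by limma-voom). Of the 31-base windows of its transcript 87.7% also occur in 5 pseudogenes, so its count is uncertain. The same holds for Atp5l, the lowest of the complex (-0.48 ± 0.95), which had 28.3, 36.3, 51.9 and 8.05 and shares 85.4% of its windows with 20 other genes. Atp5f1 (2266, 2665, 3193 and 3490) and Atp5e (1478, 1022, 1646 and 1985), a stalk and a rotor subunit, were the other complex V subunits with higher values in both Prmt5sKO libraries. Atp5f1 shares 46.7% of its windows with 7 other genes, so its count is less certain too.

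The member with the smallest p was Cox7a2l (chr17:83501918-83517330, minus strand), known as a factor of respiratory supercomplexes, which were not measured here. Cox7a2l had 728 and 668 normalised counts in the control and 1389 and 1645 in the Prmt5sKO libraries. The groups did not overlap, and the Prmt5sKO libraries differed by 0.24 on the log2 scale, beside the median of 0.55 over the subunits. The log2 fold change was 1.11 ± 0.22 (95% interval 0.58 to 1.65, 2.16-fold), with an unadjusted p of 0.00219 and an adjusted p of 0.231 by limma-voom, so it did not pass the threshold over all genes. It ran from 0.99 to 1.24 when any library was left out. Atp5s, a coupling factor counted here with the assembly factors, had 37.3, 20.8, 72.6 and 87.5 (1.46 ± 0.56, unadjusted p = 0.0403, adjusted p = 0.361 by limma-voom). The 12 other assembly factors had log2 fold changes between -0.50 (Ndufaf6) and 0.28, and over all 13 the median was -0.05.

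Genes outside the name rule that serve the same machinery gave a mixed picture. Of 34 further assembly factors 32 had rows, none passed the adjusted threshold and the median was 0.11, from -0.66 for Cox10 (564, 620, 324 and 444), which makes haem for complex IV, to 1.01 for Cox14 (344, 205, 434 and 695), an early factor of its assembly. Their median difference between the Prmt5sKO libraries was 0.14 (higher in the shallower for 21 of 32), beside 0.45 for the 13 assembly factors within the rule (12 of 13) and 0.55 for the subunits. For 5 further subunits and carriers it was 0.52 (4 of 5), with log2 fold changes between the groups from -0.42 for the ADP/ATP carrier Slc25a5 upwards. The highest was 0.89 ± 0.31 for Usmg5, a small subunit of ATP synthase, with 295 and 231 in control and 565 and 411 in Prmt5sKO (unadjusted p = 0.0275, adjusted p = 0.332 by limma-voom). The 13 subunits encoded by the mitochondrial genome had 0 rows, so the balance of nuclear and mitochondrial subunits was not analysed here.

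The 18 transcriptional regulators of mitochondrial genes had a median of -0.13, and 0 passed the adjusted threshold. Fold changes were negative for 12 and positive for 6. Both Prmt5sKO libraries lay below both controls for 6 (33.3%), against 23.6% of all genes. They lay above both for 2 (11.1%), Esrra (0.52) and Ppard (0.33), against 25.2%. NRF1 binds the word shown above, and Nrf1 had 1076 and 1306 normalised counts in the control and 583 and 652 in the Prmt5sKO libraries. Its groups did not overlap, with a log2 fold change of -0.95 ± 0.22 (unadjusted p = 0.00529, adjusted p = 0.256 by limma-voom). Pprc1, a coactivator of the PGC-1 family, had 3131, 4180, 1979 and 1719 (-0.97 ± 0.23, unadjusted p = 0.00566, adjusted p = 0.256 by limma-voom) and was the lowest of the list. Its relatives Ppargc1a and Ppargc1b had log2 fold changes of 0.35 and -0.37. With any library left out, the fold change ran from -1.10 to -0.80 for Nrf1 and from -1.20 to -0.76 for Pprc1. The highest was Esrrg, a nuclear receptor, with 5.65, 0, 5.19 and 51.3. For members with an NRF1 word in their promoter window the log2 fold changes had a median of 0.05 (14 genes), beside 0.00 for the 63 without it, and 6 of the 14 were negative. For the ETS word the medians were -0.03 (16 genes) and 0.01 (61 genes).

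**Figure D5:**
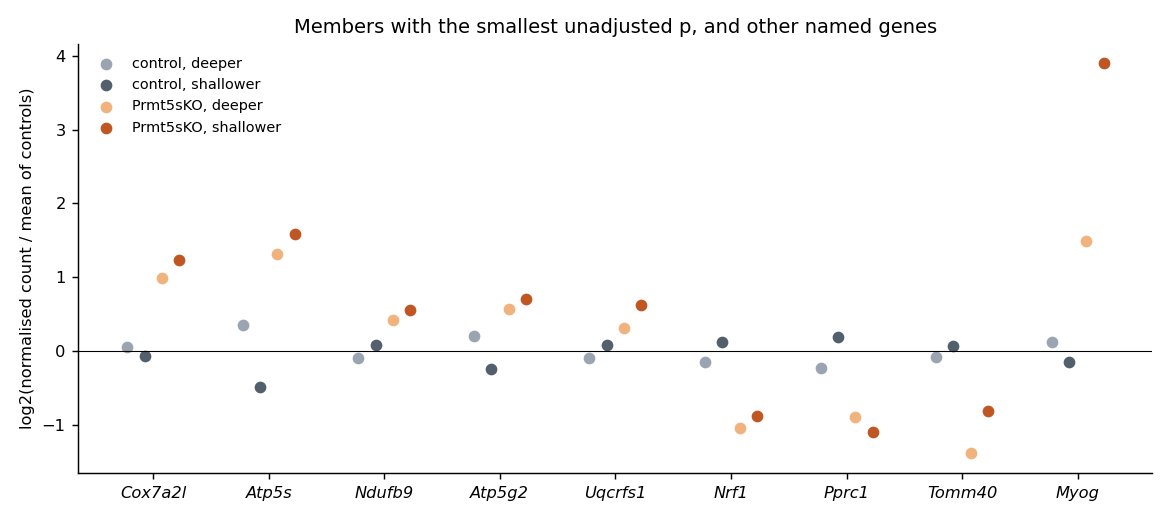
Log2 ratio of the normalised count in each library to the mean of the control libraries (y axis) for the 5 members with the smallest unadjusted p and for Nrf1, Pprc1, Tomm40 and Myog. The Prmt5sKO libraries lie together above control for Cox7a2l and below control for Nrf1 and Pprc1, whereas Myog is far higher in the shallower Prmt5sKO library.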

How the data were processed

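RNA of 4 libraries of cultured MuSC (2 control, 2 Prmt5sKO) was depleted of ribosomal RNA and sequenced on the Ion Torrent Proton by the study. Its methods give 2 libraries per sequencing run without saying which libraries shared a run. Whether run coincides with genotype is therefore unknown. Per the study's methods and processing notes, the authors trimmed reads with Reaper, aligned them to GRCm38 (mm10) with STAR 2.4.0a, counted them per gene and ran DESeq2 (given as version 1.62). In the deposited table, the signal of a gene is the authors' mean, over each group, of counts divided by size factors. The remaining columns hold the authors' mean over all libraries, log2 fold change, its standard error, p and adjusted p, and were not used. The lowest mean in the table is 0.9, so rarer genes have no row.

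Since 1 read has a fixed worth in each library, each group mean splits into whole reads of its 2 libraries, which worked for 20065 of 20065 genes in both groups (relative residual at most 5.48e-15, tolerance 1e-13, 0 genes with more than 1 solution). Columns carry no replicate numbers, so libraries are named by depth. Groups were compared with limma-voom (limma 3.58.1, R 4.3.3), own TMM factors (trimming 30% of ratios and 5% of levels), a mean normalised count of at least 5 and Benjamini-Hochberg adjustment over all genes tested (adjusted p of at most 0.05 and at least 2-fold), after tests on simulated data. Log2 levels outside the fit used a pseudocount of 0.5. The test has 6.07 degrees of freedom per gene, and 2 libraries per group limit the precision. GENCODE M21 held 19782 of the 20065 identifiers.

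Named are the tissue-restricted isoforms and their partners, the highest and lowest subunit of each complex and 7 preset subunits. The preset ones are core subunits and Uqcrc1, which is classed here as accessory. Also named are the 5 members with the smallest unadjusted p, and the extremes of the other lists. Others were named after their values were seen. The members and lists were chosen with earlier results of these data known. The alternatives were other scalings, no minimum mean, limma-trend (prior count 2), a length adjustment, leaving out each library, and both possible replicate blocks.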

Additional observations from a re-analysis of the deposited data

How the results depend on the processing

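Calls depended on the spread between the Prmt5sKO libraries. The count of 0 genes called held under the authors' size factors, upper quartile, library size only, no minimum mean, limma-trend, the length adjustment and the replicate block that pairs the deeper libraries. With the replicate block that pairs deeper with shallower libraries 346 genes were called, among them 1 member, Cox7a2l (1.12, adjusted p = 0.0474 by limma-voom). No label pairs these libraries: the deviations of the deeper libraries correlated at -0.298 across 11487 genes, and the block is given for both pairings. Leaving out 1 library gave between 0 and 489 genes called and between 0 and 1 members. The 489 arose without the deeper Prmt5sKO library (Cox7a2l adjusted p = 0.045), and 55 without the shallower Prmt5sKO library, the lone library being taken to vary like the other group. The call counts with 1 library left out, and the recomputed difference between the Prmt5sKO libraries, were added after the data were seen.

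With 1 library left out, the median log2 fold change ran from -0.20 to 0.36 over the subunits, from -0.29 to 0.34 in complex I, from -0.32 to 0.26 in complex II, from -0.09 to 0.47 in complex III, from -0.13 to 0.40 in complex IV and from -0.065 to 0.36 in complex V. Other settings moved these medians by less than the spread between libraries. Library size only moved the median of all genes to 0.13, and the subunits stood at 0.19 there. The median difference between the Prmt5sKO libraries over the subunits was 0.42 to 0.55, with 72 to 77 subunits higher in the shallower and 27 to 34 spanning the controls.

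Signs of single genes also turned. Cox6b1 became 0.0595 and Cox7a1 0.12 with the length adjustment, Cox7a2 0.094 with it and 0.047 with library size only, and Cox7a1 0.0073 with library size only. Cox8a became -0.0030 with the authors' size factors and -0.012 with upper quartile. With 1 library left out the ranges were -0.13 to 0.26 for Atp5b, -1.92 to 0.69 for Atp5l, -0.15 to 0.41 for Cox4i1, -0.058 to 0.78 for Cox4i2, -0.11 to 0.40 for Cox6a1, -0.59 to 0.30 for Cox6b1, -0.73 to 0.50 for Cox7a1, -0.34 to 0.22 for Cox7a2, -0.28 to 0.28 for Cox8a, -0.20 to 3.74 for Cox8b, -0.93 to 0.50 for Ndufa4, -0.73 to 0.059 for Ndufs6, -0.45 to 0.23 for Ndufv1 and -0.44 to 0.10 for Sdhb. Causes were not tested.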

Other observations

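Mitochondrial import and matrix genes were compared with the OXPHOS subunits. Of 15 such genes, all in the table, 0 passed the adjusted threshold of limma-voom. At an unadjusted p under 0.05, 0 were higher against 6.01% of all genes, and 1, Tomm40, was lower against 6.95%. The median log2 fold change was -0.09, and the median difference between the Prmt5sKO libraries was 0.17, beside 0.55 for the subunits. In 3 of the 15 genes the Prmt5sKO libraries spanned the controls with the shallower on top, against 34 of the 80 subunits and 6.46% of all genes. Tomm40, the channel through which nuclear-encoded proteins enter mitochondria, was the lowest, with 2399 and 2659 normalised counts in the control and 971 and 1444 in the Prmt5sKO libraries (-1.10 ± 0.26, unadjusted p = 0.00499, adjusted p = 0.252 by limma-voom). It ran from -1.38 to -0.81 when any library was left out. The highest was Sucla2, a subunit of succinyl-CoA synthetase, with 965, 1028, 1208 and 1357 (0.36 ± 0.20). Citrate synthase (Cs), often used as a measure of mitochondrial content, had 7263, 8212, 6733 and 9187 and was named after its values were seen. Its Prmt5sKO libraries lay on either side of the controls, as those of Atp5b did. The shallower Prmt5sKO library was the higher one for 10 of the 15 genes. It was the lower one for others, such as Hspd1 with 8099 in the deeper and 5145 in the shallower. Mitochondrial content was not measured.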
